A study of Homo sapiens with 4 samples.

Results

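The genes described here encode the positive transcription elongation factor P-TEFb, the proteins that hold it inactive and a pair of bromodomain and extra-terminal (BET) proteins that work with it. They are 9 of the 60675 genes in the deposited counts, taken by name from the known complexes: CDK9, CCNT1 and CCNT2 (P-TEFb), HEXIM1 and HEXIM2 (its inhibitors), LARP7 and MEPCE (proteins of the 7SK complex), and BRD2 and BRD3 (BET). The cells were LNCaP, a human prostate cancer line that responds to androgen and came from a lymph node metastasis. All received R1881, a synthetic androgen, at 1 nM for 72 h, either with vehicle (R1881 + vehicle, n = 2) or with 50 µM CPI-455 (R1881 + CPI-455, n = 2). CPI-455 inhibits the KDM5 family of histone H3 lysine 4 demethylases as a whole and not KDM5B alone, and the study used it to ask how KDM5 inhibition alters the androgen-driven transcriptome. The labels give R1881 in ethanol and CPI-455 in DMSO, and medium without phenol red holding hormone-depleted serum. Both groups carry the androgen, so no level without androgen is given here, and 1 cell line was used. The methods call the replicates biological but do not describe separate cultures, so p-values measure only the spread between these libraries.

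P-TEFb is a kinase, CDK9, bound to cyclin T1 or cyclin T2. It phosphorylates the C-terminal domain of RNA polymerase II, NELF and DSIF, and so releases polymerase that has paused shortly after initiation. Much of the P-TEFb of a cell is kept inactive in the 7SK ribonucleoprotein, in which the small nuclear RNA 7SK is capped by MEPCE, held at its 3′ end by LARP7, and bound by HEXIM1 or HEXIM2, which block the kinase. BET proteins bind acetylated histones and are linked to the recruitment of P-TEFb, and inhibitors of BET proteins are known to lower androgen-driven transcription in prostate cancer cells.

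The libraries held 19623553 and 20690819 counted fragments with vehicle but 9522920 and 5401588 with CPI-455, so depth moved with treatment and low genes are less sure with CPI-455. In normalized CPM, the counts scaled to library size by edgeR, 1 fragment was worth 0.0458 to 0.0473 with vehicle against 0.112 to 0.198 with CPI-455. Across genes, log2 CPM of replicates had a Pearson r of 0.993 with vehicle against 0.946 with CPI-455, with genes not independent of each other. All 8 luminal prostate markers examined had at least 10 counts in every library, with a summed level of 836 to 915 CPM with vehicle against 375 to 428 CPM with CPI-455. The summed basal epithelial markers were at 0.189 to 0.275 CPM with vehicle against 1.19 to 1.24 CPM with CPI-455, with KRT5 at 0 in every library. The basal sums with CPI-455 came from a different gene in each library. KRT14 had 11 and 0 fragments in replicates 1 and 2, and TP63 had 0 and 6. Leukocyte markers were at 0.0947 to 0.183 CPM and 0 to 0.900 CPM. Fibroblast markers summed to 4.03 to 5.02 CPM and 10.2 to 10.7 CPM. Most of this was COL1A1, at 4.97 and 4.03 CPM with vehicle against 10.1 and 7.73 CPM with CPI-455. Its log2 fold change was 1.00 (FDR = 0.0195, edgeR quasi-likelihood test). COL1A2 had 0 and 15 fragments in CPI-455 replicates 1 and 2. Endothelial markers summed to 1.04 to 1.56 CPM and 0 to 0.450 CPM, and neuroendocrine markers to 9.61 to 11.5 CPM and 9.12 to 10.6 CPM. Members of a sum could differ, since KLK2 (log2 fold change 0.56, FDR = 0.00834) went against the luminal sum, and CHGA (-1.32, FDR = 0.0176) and SYP (0.69, FDR = 0.106) had opposite signs in the neuroendocrine one (edgeR quasi-likelihood test). The part of these shifts in the results was not tested. In these bulk libraries, fewer cells of a kind and less RNA per cell cannot be told apart.

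All 9 genes passed the filter on low counts, and 4 of them were called, which means an FDR below 0.05 and at least a 2-fold change by the quasi-likelihood test of edgeR, adjusted over all genes tested (Benjamini-Hochberg). LARP7 was called higher with CPI-455, and CCNT1, MEPCE and HEXIM2 were called lower. Among all 17600 genes tested, 42.4% were called, 21.0% higher and 21.3% lower, so the count of 4 in 9 is near the background. With no minimum fold, 8 of the 9 genes had an FDR below 0.05 (2 higher, 6 lower), against 62.6% of all genes tested (29.8% higher, 32.8% lower). The normalized CPM of the groups did not overlap for 8 genes, all but BRD3, where 81.9% of all genes tested had groups that did not overlap. The median log2 fold change, CPI-455 over vehicle, was -0.78 over the 9 genes, with a range from -3.32 to 2.43, beside -0.04 over all genes tested and -0.21 over the 13813 protein-coding genes.

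**Figure D1:**
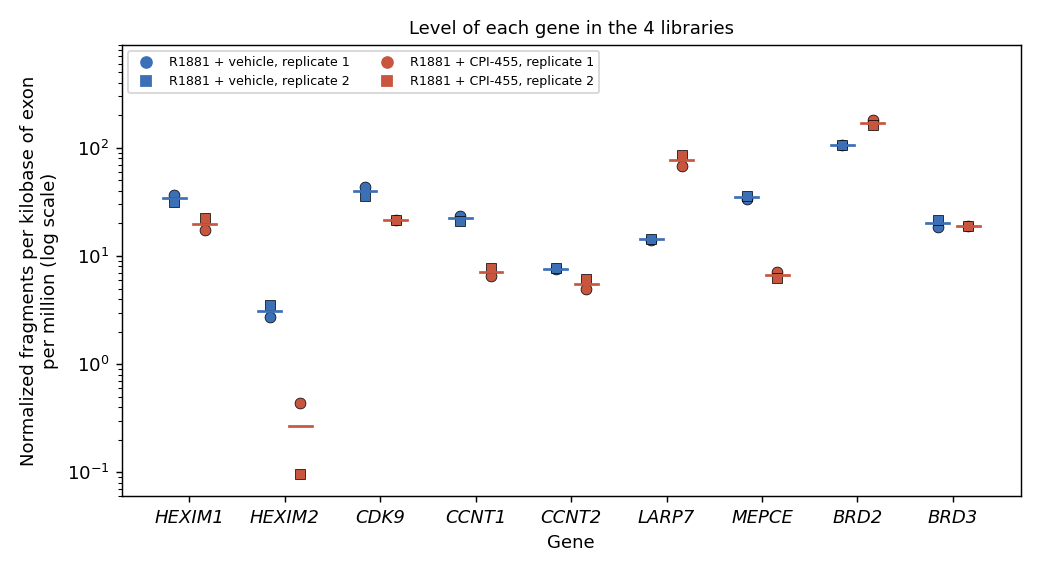
Normalized FPKM (log scale) of the 9 genes in each of the 4 libraries; circles are replicate 1, squares replicate 2, and short lines the group means (n = 2). BRD2 was the highest gene in every library, LARP7 moved from a mean of 14.3 to 77.3, and HEXIM2 was the lowest, from 3.11 to 0.269.

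The order of the levels was compared per length, as FPKM, which is the normalized CPM divided by the exon length in kilobases. The full exon length was used, although fragments on bases shared with other genes were not counted. Shared bases were 18.6% for BRD3, 14.4% for HEXIM1, 5.9% for MEPCE and 3.0% for CDK9, so the order among near levels is not sure. With vehicle, mean FPKM ran from BRD2 (107) through CDK9 (39.9), MEPCE (34.8), HEXIM1 (34.1), CCNT1 (22.3), BRD3 (20.1), LARP7 (14.3) and CCNT2 (7.66) to HEXIM2 (3.11). Neighbours whose replicates overlapped were CDK9, MEPCE and HEXIM1, and also CCNT1 and BRD3. With CPI-455 the order was BRD2 (171), LARP7 (77.3), CDK9 (21.3), HEXIM1 (20.0), BRD3 (19.1), CCNT1 (7.17), MEPCE (6.65), CCNT2 (5.54) and HEXIM2 (0.269). There the replicates of HEXIM1 overlapped those of CDK9 and of BRD3, and the replicates of CCNT1 and MEPCE overlapped. By this measure CDK9 stood just above BRD3 in both libraries, a gap small beside the difference in shared bases. LARP7 thus went from the seventh to the second place, and MEPCE from the third to the seventh.

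**Figure D2:**
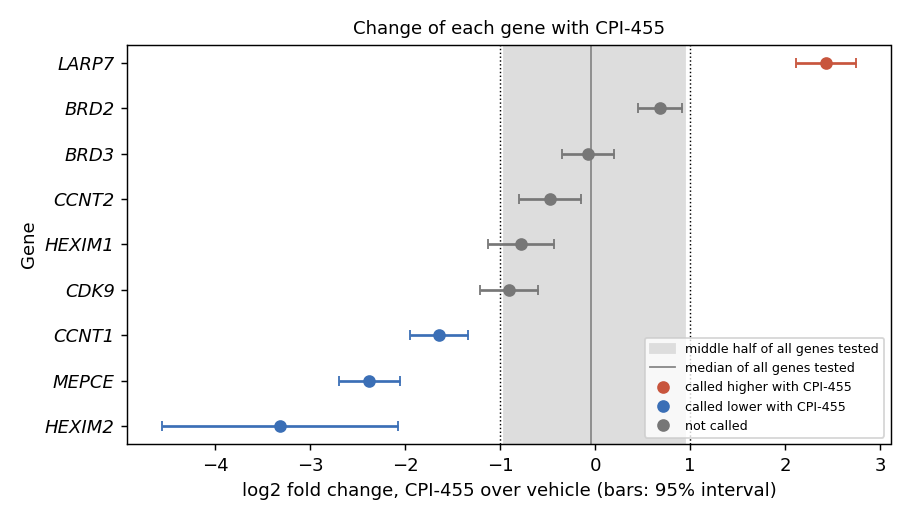
Log2 fold change of each gene, CPI-455 over vehicle, with its 95% interval from edgeR's quasi-likelihood fit (n = 2 per group). The grey band is the middle 50% of all genes tested (-0.96 to 0.94), the solid line their median and the dotted lines a 2-fold change; LARP7, CCNT1, MEPCE and HEXIM2 lie outside the dotted lines with their whole interval.

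CDK9, the kinase of P-TEFb (ENSG00000136807, GRCh38 chromosome 9, 127785679 to 127790787, plus strand), was lower with CPI-455 but not called. It was measured at 132 and 108 CPM with vehicle and at 64.1 and 63.8 CPM with CPI-455. Both CPI-455 libraries lay below both vehicle libraries, and they were closer to each other than the vehicle libraries were. The change of CDK9 was -0.91 on the log2 scale (standard error 0.14, 95% interval -1.21 to -0.60), with an FDR of 3.511e-04 from edgeR's quasi-likelihood test. Its interval crossed the 2-fold line, and CDK9 was called without vehicle replicate 2 (log2 fold change -1.07), with library totals in place of TMM (-1.10), without the filter (-1.06) and once exon length and GC content were allowed for (-1.23), by taking a smooth trend on both out of each library.

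CCNT1, which encodes cyclin T1, the main cyclin partner of CDK9 (ENSG00000129315, chromosome 12, 48688458 to 48716998, minus strand), fell 3.13-fold. Its level was 173 and 155 CPM with vehicle against 48.1 and 57.5 CPM with CPI-455. Each vehicle library thus stood well above both CPI-455 libraries, with 428 and 290 fragments still counted on CCNT1 with CPI-455. On the log2 scale CCNT1 changed by -1.64 (standard error 0.14, 95% interval -1.95 to -1.34), and its FDR was 8.802e-06 in the same edgeR quasi-likelihood test. The fall was smaller once exon length and GC content were allowed for (log2 fold change -1.26), and CCNT1 was still called.

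The other cyclin gene, CCNT2 (ENSG00000082258, chromosome 2, 134918235 to 134959342, plus strand), encodes cyclin T2, which forms P-TEFb with CDK9 in place of cyclin T1. It stood at 68.8 and 70.2 CPM with vehicle and at 45.1 and 55.5 CPM with CPI-455. The groups did not overlap, but the gap between them was smaller than for CCNT1. CCNT2 changed by -0.48 on the log2 scale (standard error 0.14, 95% interval -0.80 to -0.15; FDR = 0.0172, edgeR quasi-likelihood test), so it was not called. Its FDR was 0.104 without vehicle replicate 1, 0.131 without vehicle replicate 2 and 0.101 with upper-quartile normalization, and once exon length and GC content were allowed for, its log2 fold change was -0.05 (FDR = 0.748). CCNT1 and CCNT2 are both long in exon and low in GC, at 40.6% and 38.3%.

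HEXIM1 and HEXIM2 encode the proteins that inhibit CDK9 within the 7SK complex, and the genes lie side by side on chromosome 17. HEXIM1 (ENSG00000186834, 45148502 to 45152101, plus strand) is made of 1 exon of 3600 bases, of which 14.4% are shared with HEXIM2-AS1 on the other strand. In the counts it was at 133 and 113 CPM with vehicle and at 62.7 and 80.9 CPM with CPI-455. Both CPI-455 libraries were below both vehicle libraries, with the second CPI-455 library the nearer to vehicle. HEXIM1 changed by -0.78 on the log2 scale (standard error 0.15, 95% interval -1.13 to -0.44; FDR = 0.00167, edgeR quasi-likelihood test), short of 2-fold. It would be called without CPI-455 replicate 2 (log2 fold change -1.01).

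HEXIM2 (ENSG00000168517, 45160700 to 45170040, plus strand) had the largest change of the 9 genes and the fewest fragments. They numbered 117 and 156 with vehicle against 8 and 1 with CPI-455, which is 5.54 and 7.14 CPM against 0.900 and 0.198 CPM. The single fragment of CPI-455 replicate 2 is below the 0.595 CPM that 3 counts give in that library. HEXIM2 was called lower, at -3.32 on the log2 scale (standard error 0.55, 95% interval -4.56 to -2.08; FDR = 6.359e-04, edgeR quasi-likelihood test). Taken as sums, 273 fragments with vehicle against 9 with CPI-455 give a ratio of 9.84 after scaling, with an exact 95% interval of 5.11 to 21.7 that covers counting error only. The size of the change depends on which CPI-455 library is kept, since the log2 fold change was -4.96 without CPI-455 replicate 1 and -2.85 without CPI-455 replicate 2, and it was -3.90 once exon length and GC content were allowed for. About 50.3% of HEXIM2 exon bases are shared with a gene on the other strand, and fragments on shared bases were not counted.

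Over the 4 libraries, the genes whose pattern was nearest to that of HEXIM2 were sought among 6593 genes whose mean log2 CPM reached 5. By Euclidean distance of log2 CPM centred on the gene mean they were ATF5 (distance 0.604), NOTCH1 (0.666) and FLNC (0.729). These genes had log2 fold changes of -3.01, -2.91 and -3.45. Like HEXIM2, all had a lower value in CPI-455 replicate 2 than in CPI-455 replicate 1. They were picked for being near HEXIM2, so both likenesses follow from the choice. The order of the CPI-455 replicates in HEXIM2 rests on 8 and 1 fragments.

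The sequences before the RefSeq start sites of the HEXIM and BRD genes are shown because in each of these pairs the 95% intervals of the log2 fold changes did not overlap. Those of CCNT1 and CCNT2, and of LARP7 and MEPCE, did not overlap either, but most windows of these genes reach into annotated untranslated regions. None of their windows is printed, also not those outside such regions. Exons of the annotation used for counting cover 246, 30, 101 and 0 bases of the windows printed for HEXIM1, HEXIM2, BRD2 and BRD3. Each window printed is the 250 bases before a start site on GRCh38.p14, from RefSeq, written 5′ to 3′ on the gene's strand. Capitals mark matches, on either strand, to the letters TATAAA of the TATA box, to the letters GGGCGG of the GC box, or to the letters CCAAT of the box of that name. No window printed holds the letters TGACGTCA of the cyclic AMP response element or the letters CACGTG of the E-box.
HEXIM1, chr17:45148225-45148474, plus strand: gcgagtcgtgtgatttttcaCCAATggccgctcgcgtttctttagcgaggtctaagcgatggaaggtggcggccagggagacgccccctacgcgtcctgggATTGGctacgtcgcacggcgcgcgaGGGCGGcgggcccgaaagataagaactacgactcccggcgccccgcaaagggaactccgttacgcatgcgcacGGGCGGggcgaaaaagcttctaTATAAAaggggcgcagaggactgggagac
HEXIM2, chr17:45161625-45161874, plus strand: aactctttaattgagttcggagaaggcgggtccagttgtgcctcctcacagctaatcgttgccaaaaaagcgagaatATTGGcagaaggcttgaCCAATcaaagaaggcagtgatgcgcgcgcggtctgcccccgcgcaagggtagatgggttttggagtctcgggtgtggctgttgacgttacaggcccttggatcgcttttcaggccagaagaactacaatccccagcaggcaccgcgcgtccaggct
BRD2, chr6:32968344-32968593, plus strand: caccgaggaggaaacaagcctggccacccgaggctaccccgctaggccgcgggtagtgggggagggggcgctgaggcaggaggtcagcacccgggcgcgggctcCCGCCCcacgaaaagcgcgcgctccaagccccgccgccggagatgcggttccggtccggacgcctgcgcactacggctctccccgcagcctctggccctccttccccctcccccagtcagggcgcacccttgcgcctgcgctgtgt
BRD3, chr9:134068027-134068276, minus strand: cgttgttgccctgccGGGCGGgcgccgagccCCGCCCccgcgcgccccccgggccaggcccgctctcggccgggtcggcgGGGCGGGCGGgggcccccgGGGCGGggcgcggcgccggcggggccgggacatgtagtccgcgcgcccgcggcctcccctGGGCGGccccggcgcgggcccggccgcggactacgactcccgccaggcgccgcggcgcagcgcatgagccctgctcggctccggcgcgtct

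The HEXIM1 window has a TATA box 29 bases before the start, GC boxes at 124 and 51 bases and CCAAT boxes at 230 and 149 bases before it. HEXIM2 has CCAAT boxes at 173 and 156 bases in the window printed, and its other RefSeq window (chr17:45159924-45160173) has no match to these motifs. The BRD2 window printed has 1 GC box, at 146 bases, and of its 3 other RefSeq windows, which begin elsewhere in the gene, 2 hold 1 GC box each, at 241 and 116 bases. The single BRD3 window has 6, some of which overlap in the capitals, with a GC content of 86.8% against 74.0% in the BRD2 window printed. Of 35116 RefSeq windows of this length, 10.7% hold TATAAA, 42.6% GGGCGG, 32.0% CCAAT, 1.65% TGACGTCA and 6.34% CACGTG. HEXIM1 was the only one of the 9 genes with TATAAA in any of their 17 windows. A match describes letters only, and none of these windows was measured in this study.

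LARP7, which binds the 3′ end of 7SK RNA and protects it (ENSG00000174720, chromosome 4, 112636964 to 112657592, plus strand), rose 5.38-fold. Fragment counts rose outright in spite of the smaller libraries, from 1220 and 1293 in the vehicle libraries to 2477 and 1777 in the CPI-455 libraries. Scaled to the libraries, LARP7 was at 57.8 and 59.2 CPM with vehicle and at 279 and 352 CPM with CPI-455. No vehicle library came near either CPI-455 library. For LARP7 the log2 fold change was 2.43 (standard error 0.14, 95% interval 2.11 to 2.74; FDR = 1.373e-06, edgeR quasi-likelihood test), above that of 92.3% of all genes tested.

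MEPCE, the enzyme that methylates the 5′ end of 7SK RNA (ENSG00000146834, chromosome 7, 100428790 to 100434126, plus strand), went the other way and fell 5.20-fold. It was counted at 115 and 123 CPM with vehicle and at 24.1 and 21.4 CPM with CPI-455. The groups were far apart and the replicates close, with 214 and 108 fragments left in the CPI-455 libraries. For MEPCE the change was -2.38 on the log2 scale (standard error 0.14, 95% interval -2.70 to -2.06; FDR = 1.565e-06, edgeR quasi-likelihood test). LARP7 is low in exon GC (39.0%) and MEPCE high (61.5%), and once exon length and GC content were allowed for, LARP7 was still called higher and MEPCE still called lower.

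The RNA of the complex, 7SK, is transcribed from RN7SK by RNA polymerase III and has no poly(A) tail (ENSG00000202198, chromosome 6, 52995620 to 52995950, plus strand, 331 bases). RN7SK was counted with 171 and 98 fragments with vehicle against 2032 and 730 with CPI-455, which is 8.10 and 4.49 CPM against 229 and 145 CPM. On the log2 scale RN7SK changed by 4.90 (standard error 0.30; FDR = 1.791e-06, edgeR quasi-likelihood test), and 3.03 once exon length and GC content were allowed for. Beside it, 54 of 59 small nucleolar RNA genes tested, which also lack a poly(A) tail, were called higher (median 4.67 on the log2 scale). The share called higher among all genes tested was 21.0%. How RNA was selected for these libraries is not given in the sources used here, and its part in the level of RN7SK was not tested. Near-identical copies of 7SK exist in the genome, and fragments with several alignments were not counted, so RN7SK is measured less surely than the protein genes.

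Among the BET genes, BRD2 (ENSG00000204256, chromosome 6, 32968660 to 32981505, plus strand) encodes a reader of acetylated histones and was the most abundant of the 9 genes. Its level was 781 and 785 CPM with vehicle against 1320 and 1196 CPM with CPI-455. The vehicle libraries were almost equal, and both CPI-455 libraries were above them. BRD2 changed by 0.68 on the log2 scale (standard error 0.10, 95% interval 0.45 to 0.92; FDR = 3.595e-04, edgeR quasi-likelihood test), or 1.61-fold, so it was not called. Exons of other genes share 11.9% of the BRD2 exon bases.

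BRD3, a close relative of BRD2 (ENSG00000169925, chromosome 9, 134030305 to 134068535, minus strand), stood at 128 and 149 CPM with vehicle and at 131 and 131 CPM with CPI-455. Both CPI-455 values lay between the vehicle values, so the groups overlapped. Its log2 fold change was -0.08 (standard error 0.12, 95% interval -0.35 to 0.19; FDR = 0.601, edgeR quasi-likelihood test). This interval leaves room for a fall or rise well short of 2-fold. The sign of so small a value turned with the scaling, to 0.10 with upper-quartile normalization, a setting that moved the median of all genes by 0.17, and was 0.010 without vehicle replicate 2. BRD3OS on the other strand shares 18.6% of the BRD3 exon bases.

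Ratios of these genes within a library do not depend on the scaling between libraries, though they can depend on exon length and GC content, and they are given as fragments per kilobase of exon of one gene over another. With 2 libraries per group an exact permutation test cannot go below p = 0.333, so the ratios are a description without a test. For the inhibitor gene relative to the kinase gene, HEXIM1 over CDK9 was 0.841 and 0.871 with vehicle against 0.816 and 1.06 with CPI-455, and the groups overlapped. Relative to the cyclin gene it was higher in both CPI-455 libraries, with HEXIM1 over CCNT1 at 1.57 and 1.49 with vehicle and at 2.67 and 2.88 with CPI-455.

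Within P-TEFb, CCNT1 over CDK9 was 0.535 and 0.585 with vehicle against 0.306 and 0.367 with CPI-455. CCNT2 over CDK9 was 0.173 and 0.215 with vehicle against 0.232 and 0.287 with CPI-455. The share of cyclin T1 relative to cyclin T2 transcripts was therefore lower in both CPI-455 libraries, with CCNT1 over CCNT2 at 3.09 and 2.73 with vehicle and at 1.31 and 1.28 with CPI-455. Once exon length and GC content were allowed for, an alternative chosen after seeing the data, CCNT1 over CDK9 was 0.985 times its vehicle value in place of 0.598 times, so that its lower value was lost, and CCNT2 over CDK9 was 2.27 times in place of 1.34 times. CCNT1 over CCNT2 was 0.433 times in place of 0.446 times. In vehicle CCNT1 outnumbered CCNT2 in every library, and it still did with CPI-455 by a smaller margin.

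LARP7 and MEPCE went in opposite directions. LARP7 over MEPCE was 0.422 and 0.402 with vehicle against 9.70 and 13.8 with CPI-455, which is 28.1-fold higher as a ratio of geometric means, and 41.9-fold higher once exon length and GC content were allowed for. HEXIM1 over LARP7 was 2.61 and 2.16 with vehicle against 0.255 and 0.260 with CPI-455, whereas HEXIM1 over MEPCE was 1.10 and 0.870 with vehicle against 2.48 and 3.59 with CPI-455. For the BET pair, BRD2 over BRD3 was 5.71 and 4.95 with vehicle against 9.43 and 8.54 with CPI-455. Of these 9 ratios, the groups overlapped for HEXIM1 over CDK9 alone. The ratios share genes and are not independent, and among single genes 81.9% of all tested had groups that did not overlap.

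**Figure D3:**
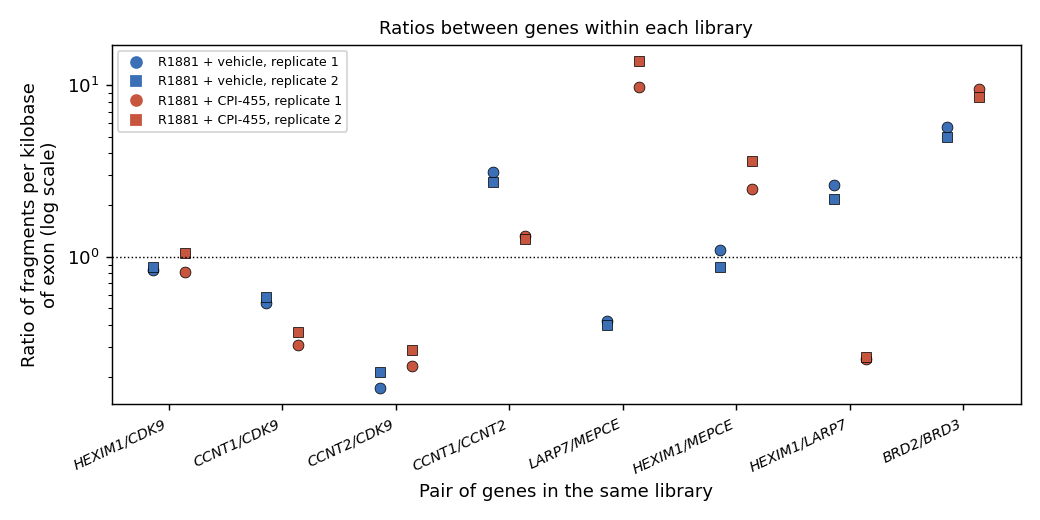
Ratios of fragments per kilobase of exon between pairs of the genes within each library (log scale; circles replicate 1, squares replicate 2; the dotted line is a ratio of 1). LARP7 over MEPCE crosses from 0.402 to 0.422 with vehicle to 9.70 to 13.8 with CPI-455, and HEXIM1 over CDK9 stays between 0.816 and 1.06 in all libraries.

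To set these genes in their pathway, 51 other genes of transcription elongation were counted, of which 49 passed the filter on low counts. Of these, 6 were called higher with CPI-455, 10 were called lower and 33 were not called, beside the background of 42.4% called (21.0% higher, 21.3% lower). Their median log2 fold change was -0.0013, against -0.04 over all genes tested, with AFF4 at the low end and RN7SK at the high end. The genes called in each complex, all of which are named here, fell into these groups.

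In the super elongation complex, which carries P-TEFb to paused polymerase, 3 of 9 genes were called lower, beside 21.3% of all genes tested. The median was -0.97 on the log2 scale, near the lower quartile of all genes tested (-0.96). AFF4, its scaffold, fell by 2.00 on the log2 scale (298 and 357 CPM with vehicle, 80.7 and 83.3 CPM with CPI-455). MLLT1, a chromatin reader of the complex, fell by 1.72, and ELL2, an elongation factor that stimulates polymerase, fell by 1.49. With exon length and GC content allowed for, AFF4 (log2 fold change -1.61), MLLT1 (-1.92) and ELL2 (-1.07) were still called. The remaining 6 genes were not called.

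Among kinases of the polymerase tail and their partners, 2 of 6 were called in each direction. Over all genes tested, 21.0% were called higher and 21.3% lower, and this group is small. CDK12 and CDK13, which phosphorylate serine in the tail during elongation, fell by 1.88 and 1.61 on the log2 scale, with CDK12 at 178 and 219 CPM with vehicle and at 56.5 and 51.4 CPM with CPI-455. CDK7 and CCNH, the kinase and cyclin of TFIIH, rose by 1.39 and 1.47 on the log2 scale, with CCNH at 24.3 and 23.6 CPM with vehicle and at 61.6 and 71.8 CPM with CPI-455. PPM1G, a phosphatase that frees P-TEFb from the 7SK complex, fell by 1.73, while the other 2 genes of P-TEFb release and partners were not called.

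In NELF, which holds polymerase at the pause, NELFCD rose by 1.84 on the log2 scale (76.6 and 67.0 CPM with vehicle, 266 and 247 CPM with CPI-455), and the other 3 genes were not called. Neither gene of DSIF and neither gene of TFIIS was called. Of 6 PAF1 complex genes, CTR9 and CDC73 were called lower, by -1.49 and -1.41 on the log2 scale, and of 4 genes of SPT6, IWS1 and FACT, SUPT6H was called lower at -1.14. SUPT6H was no longer called with upper-quartile normalization (log2 fold change -0.96) or once exon length and GC content were allowed for (-0.98). With that allowance NELFCD (2.04), CTR9 (-1.18) and CDC73 (-1.04) were still called. These small groups stand beside 21.0% called higher and 21.3% called lower over all genes tested.

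Of the 11 RNA polymerase II subunit genes tested, POLR2D fell by 1.74 on the log2 scale (159 and 162 CPM with vehicle, 45.7 and 50.8 CPM with CPI-455), POLR2H rose by 1.36 and POLR2J rose by 1.12. POLR2J lost its call with library totals (log2 fold change 0.93), without a filter (0.97) and once exon length and GC content were allowed for (0.33). The other subunit genes were not called, where 42.4% of all genes tested were called (21.0% higher, 21.3% lower). RN7SK completes the 6 elongation genes called higher.

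**Figure D4:**
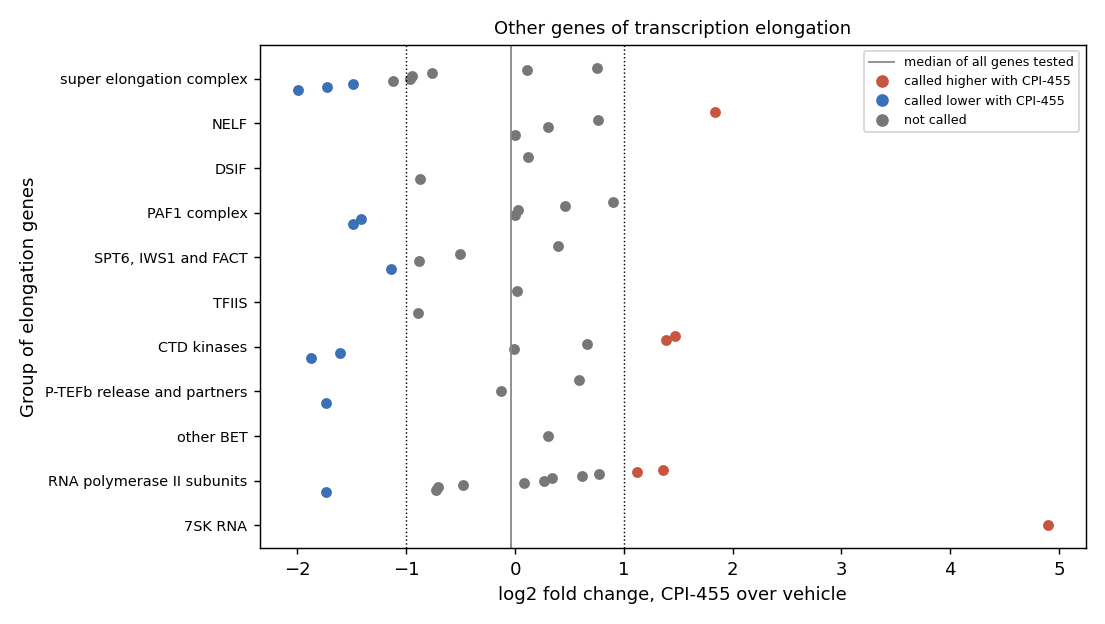
Log2 fold change, CPI-455 over vehicle, of the 49 other elongation genes tested, by complex; each point is a gene, dotted lines mark a 2-fold change and the solid line the median of all genes tested (-0.04). RN7SK stands at 4.90, and the super elongation complex has a median of -0.97, near the lower quartile of all genes tested (-0.96).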

How the data were processed

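RNA-seq libraries of 4 samples of LNCaP cells were compared, 2 with R1881 and vehicle and 2 with R1881 and CPI-455, grouped by the sample labels. The deposited files hold unnormalized counts of fragments on each gene, which the authors made by trimming reads with TrimGalore, aligning them to GRCh38 with STAR and counting with featureCounts 1.5.0-p1 on Ensembl release 83. Counting ignored strand and left out fragments that aligned to several places or to several genes. The DMSO concentration of the vehicle differs between the methods and the labels.

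Counts were normalized by TMM, filtered with filterByExpr (minimum 10) and tested with glmQLFit and glmQLFTest in edgeR 4.0.16 (R 4.3.3), without covariates. CPM values use TMM-scaled library sizes, and values are per library or a mean over 2 libraries. Called genes had an FDR (Benjamini-Hochberg over all 17600 genes tested) below 0.05 and at least a 2-fold change, as in the methods. The standard error is the log2 fold change divided by the square root of F. A total of 3 counts corresponded to 0.137 to 0.142 CPM with vehicle and to 0.337 to 0.595 CPM with CPI-455. Symbols were matched for 56558 genes, and gene types came from GENCODE 44. In counts simulated from these libraries, the test recovered 152 of 200 genes (76%) changed by 1.5 on the log2 scale, with 4 false calls, over 17107 genes. Only those 200 genes were changed there, and both groups were given the same spread. In these data 42.4% of genes were called and CPI-455 replicates differed more, so recovery and false calls may differ. Alternatives included DESeq2 1.42.0 and a trend on exon length and GC content fitted with mgcv 1.9.3.

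The genes named are all 9 genes of the group, RN7SK and the called elongation genes with the 3 largest changes up and down, and the 3 genes nearest to the one with the largest change. Other called elongation genes were named after their values were seen. The 9 genes and all lists were chosen with earlier results of these data known. Some genes are not reported here.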

Additional observations from a re-analysis of the deposited data

How the results depend on the processing

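Of 134 log2 fold changes of the 9 genes under the alternatives, 126 kept their direction and their call, 6 were called only under the alternative (CDK9 and HEXIM1, as given above) and 2 turned sign, both of BRD3 (0.10 with upper-quartile normalization, and -0.20 to 0.010 over the fits that left out a library, the highest without vehicle replicate 2). The side of an FDR of 0.05 changed in 5 of the 134, all of CCNT2. Of 240 values of the 16 called elongation genes, 233 kept their call and 7 lost it (SUPT6H and POLR2J). At an FDR below 0.05 with no minimum fold, 8 of the 9 genes and 35 of 49 elongation genes passed, against 62.6% of all genes tested. With exon length and GC content allowed for, an alternative chosen after seeing the data, the fold of the ratio was 1.41 for HEXIM1/CDK9, 1.43 for HEXIM1/CCNT1, 0.985 for CCNT1/CDK9, 2.27 for CCNT2/CDK9, 41.9 for LARP7/MEPCE and 0.0916 for HEXIM1/LARP7, each moved by more than the spread between replicates. The cause of these changes was not tested. HEXIM2 could not be tested at a minimum of 10 counts in every library, where 3 of 8 genes were called, beside 5645 of 13590 over all genes.

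Leaving out a library in turn, with the lone sample assumed to vary like the other group, gave 4 to 5 of the 9 genes, 17 to 21 elongation genes and 5577 to 8597 genes in all. Upper-quartile scaling moved the median of all genes by 0.17 on the log2 scale, library totals moved it by -0.19 and no filter by -0.15. The share of all calls that were higher was 49.6%, and 58.1%, 40.7% and 42.2% under these settings. The labels number replicates in both groups, but nothing states that same-numbered samples were grown together. Deviations of same-numbered libraries had a correlation of 0.04 across genes, and of 0.14 across genes whose mean log2 CPM reached 5, and with 2 pairs the numbers were not taken as a pairing. With a replicate block, 7167 genes in all, 4 of the 9 genes and 16 elongation genes were called, and with the block and the trend removed 6668, 5 and 17. The lower depth with CPI-455 limits genes with few fragments, such as HEXIM2.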
